A study of Mus musculus with 10 samples.

Results

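Medium-width RBPJ peaks at the promoters of single genes in mouse brain pericytes are described here. RBPJ binding was mapped by chromatin immunoprecipitation and sequencing (ChIP-seq). These regions were chosen by their width, at least 500 and under 1500 bp, and by their centre, which lay within 1 kb of the transcription start site (TSS) of exactly 1 protein-coding gene. They are called members below. They numbered 2538 of the 11094 RBPJ peaks of the series, or 22.9% of all peaks and 46.2% of the 5489 peaks centred within 1 kb of a protein-coding TSS. The peaks used for comparison were the 1185 single-gene promoter peaks under 500 bp, called narrow below, and the 1098 of 1500 bp or more, called broad.

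The series holds 10 samples of RD1 cells, which the labels give as brain pericytes, with 2 replicates each of RBPJ, H3K4me1, H3K4me3, histone H3 and input. All groups were untreated cultures on collagen I in pericyte medium, and the RBPJ samples were precipitated with an anti-RBPJ antibody from Cell Signaling. The methods of the study describe cultured pericytes from the brains of adult mice homozygous for a floxed Rbpj allele (Rbpj lox/lox), while genotype and age are not among the labels of these samples. The lists of both RBPJ replicates were identical in every byte and were used as 1 list. Data of the remaining 8 samples were not used here. The list gives positions only, with no score or read count, so that depth is unknown, no spread between replicates can be given, and all intervals and tests below cover counting error over peaks.

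RBPJ is the DNA-binding factor of Notch signalling. Without a signal it sits on DNA with co-repressors, and after a Notch receptor is cleaved, the intracellular portion of the receptor joins RBPJ together with a Mastermind protein and turns on genes such as those of the Hes and Hey families. RBPJ recognises the core TGGGAA, most readily when it is preceded by G in the longer form CGTGGGAA. Most promoters of widely used mammalian genes lie in CpG islands, which are stretches rich in G, C and the dinucleotide CpG that are usually free of DNA methylation. Pericytes are the mural cells that cover capillaries and carry Notch3 as a defining receptor.

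The sequences that show the range among these peaks come first, in GRCm38 and on the strand of the gene. The full form CGTGGGAA was held in the central 200 bp by 29 of the 2538 peaks. The 5 printed were picked as examples after their values were seen and lie outside annotated exons, at Prkag2, chr5:24908596-24908651 (minus strand), at Gna11, chr10:81545247-81545302 (minus strand), at Etfb, chr7:43443770-43443825 (plus strand), at Smco4, chr9:15493817-15493872 (plus strand), and at Stk17b, chr1:53784605-53784660 (minus strand). Capitals mark the site, which reads in the opposite direction at Prkag2 and Gna11.
Prkag2: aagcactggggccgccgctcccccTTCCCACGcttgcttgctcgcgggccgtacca
Gna11: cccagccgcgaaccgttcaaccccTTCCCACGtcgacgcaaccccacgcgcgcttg
Etfb: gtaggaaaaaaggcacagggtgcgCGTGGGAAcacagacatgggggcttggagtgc
Smco4: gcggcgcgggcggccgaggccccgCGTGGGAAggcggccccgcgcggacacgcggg
Stk17b: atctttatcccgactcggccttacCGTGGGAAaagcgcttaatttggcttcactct

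Hey2 and Itgb4 are shown as genes of the Notch target and integrin lists with TGGGAA in the centre of such a peak. Their roles follow with the results. The Hey2 window is chr10:30842961-30843014 (minus strand), with a core at -186 bp from the TSS, and the Itgb4 window is chr11:115975625-115975678 (plus strand), in an intron 672 bp downstream of the TSS. The central site of Hey2 itself, 16 bp downstream of the TSS, lies in an exon and is not printed. Capitals mark the core, read on the opposite strand in both.
Hey2: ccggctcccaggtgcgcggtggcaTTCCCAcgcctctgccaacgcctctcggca
Itgb4: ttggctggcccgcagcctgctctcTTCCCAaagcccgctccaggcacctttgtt

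Other members held no core at all. The central 200 bp of the peaks at Acvr2a, chr2:48813867-48814066 (plus strand), and Adam10, chr9:70678780-70678979 (plus strand), are printed as examples with no TGGGAA anywhere in the peak. Capitals mark each CpG. Acvr2a encodes a receptor for activins and Adam10 the protease that makes the first ligand-induced cut in Notch receptors.
Acvr2a: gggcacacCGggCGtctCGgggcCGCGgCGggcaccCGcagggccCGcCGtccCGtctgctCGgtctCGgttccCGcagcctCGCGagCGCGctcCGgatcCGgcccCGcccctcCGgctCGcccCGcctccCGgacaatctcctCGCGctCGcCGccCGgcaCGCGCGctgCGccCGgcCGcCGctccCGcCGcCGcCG
Adam10: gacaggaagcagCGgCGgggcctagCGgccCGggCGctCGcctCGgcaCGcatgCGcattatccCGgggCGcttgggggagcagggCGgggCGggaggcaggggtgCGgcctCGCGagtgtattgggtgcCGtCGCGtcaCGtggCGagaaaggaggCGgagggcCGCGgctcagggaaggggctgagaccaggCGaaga

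These windows held 40 CpG at Acvr2a and 25 at Adam10, with GC contents of 83.5% and 73.5%. The same window at Tbl1xr1, another member with no core in the peak, held 11 CpG at a GC content of 74%. All 3 were above the median GC content of 68.5% over the 2538 peaks.

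The members lay at 2520 genes, of which 18 had 2 members. That is 11.5% of the 21853 protein-coding genes with a TSS in the annotation. The median width was 833 bp (quartiles 654 and 1076 bp), and the centre lay a median of 136 bp from the nearest TSS. Width and distance were used to choose the members, so these values are a description. Just inside the lower width limit were the peaks at Nop58 (500 bp), Cep112 and Eif4b (501 bp each), and just outside it those at Ablim1, Cyth3 and Ints10 (499 bp each). At the upper limit, Lamp1, Mcm2 and Taf4b were inside by 1 bp, and Camk2d with 1500 bp, Apc and Cul1 with 1501 bp were outside. The members farthest from a TSS were at Ddr1, Myo1e and Hcn3, with centres at -988, 985 and 965 bp, where a minus sign means upstream, and the nearest peaks of the same width range beyond the limit lay at -1011 bp from Fbxo11, 1104 bp from Esx1 and 1134 bp from H2-T23.

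The sign of the offset was not part of the choice, and members leaned to the gene body. The centre was downstream of the nearest TSS in 1574 members and upstream in 953, with 11 on the TSS itself. The downstream share of 62.3% (95% exact binomial interval 60.4 to 64.2%) differed from an even split with p = 2.73e-35 in a two-sided exact binomial test. Broad peaks leaned the same way, with 57.7% downstream, while 44.1% of narrow peaks were downstream. Measured from the 5' end of the gene instead of the nearest TSS, the downstream share of members was 76.0%. A member reached from a median of -342 bp to 463 bp around its TSS. Of the 2538 members, 2423 (95.5%) covered the TSS. The centre fell in an untranslated exon in 36.1% of members, in an intron in 24.5%, outside protein-coding genes in 23.2% and in a coding exon in 13.8%.

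Most members were CpG-rich. A window was called island-like when its GC content was at least 50% and its CpG count at least 0.6 times that expected from its C and G content. In the central 200 bp, 2090 members (82.3%, interval 80.8 to 83.8%) were island-like, with a median ratio of observed to expected CpG of 0.866. The share was 79.5% in narrow peaks (p = 0.0375, two-sided Fisher's exact test) and 45.0% in broad peaks (p = 4.13e-110, same test). These windows lie at different places, since the centre was within 200 bp of a TSS in 65.3% of members, 85.0% of narrow and 27.1% of broad peaks. In 200 bp centred on the nearest TSS instead, the island-like share was 88.8% at members, 81.8% at narrow peaks (exact p = 1.23e-08) and 80.1% at broad peaks (exact p = 1.64e-11). Averaged over members, GC content rose to 67.6% in the first 100 bp downstream of the centre, where there were 9.75 CpG per 100 bp. It was 58.1% at 300 to 400 bp upstream and 62.7% at 300 to 400 bp downstream.

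In each width class of members, the upstream edge fell on a similar step in base composition. In the 100 bp inside the upstream edge the median GC content was 58%, and in the 100 bp outside it was 51%. Members under 700 bp, whose upstream edge lay at a median of -274 bp, had 59% inside and 50% outside. Members of 1300 bp or more, with that edge at -551 bp, had 58% inside and 50% outside. Narrow peaks had 61% and 52%, and broad peaks 55% and 50%. Averaged over members, GC content fell upstream of the TSS, from 57.6% at 200 to 300 bp to 48.3% at 500 to 600 bp. Places away from an edge were not compared. GC content was higher inside than outside the upstream edge in 1917 members (75.5%) and higher inside the downstream edge in 1733 (68.3%). The downstream edge was less uniform, and the median GC content inside it was 67% in the narrowest of these width classes and 59% in the widest.

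**Figure D1:**
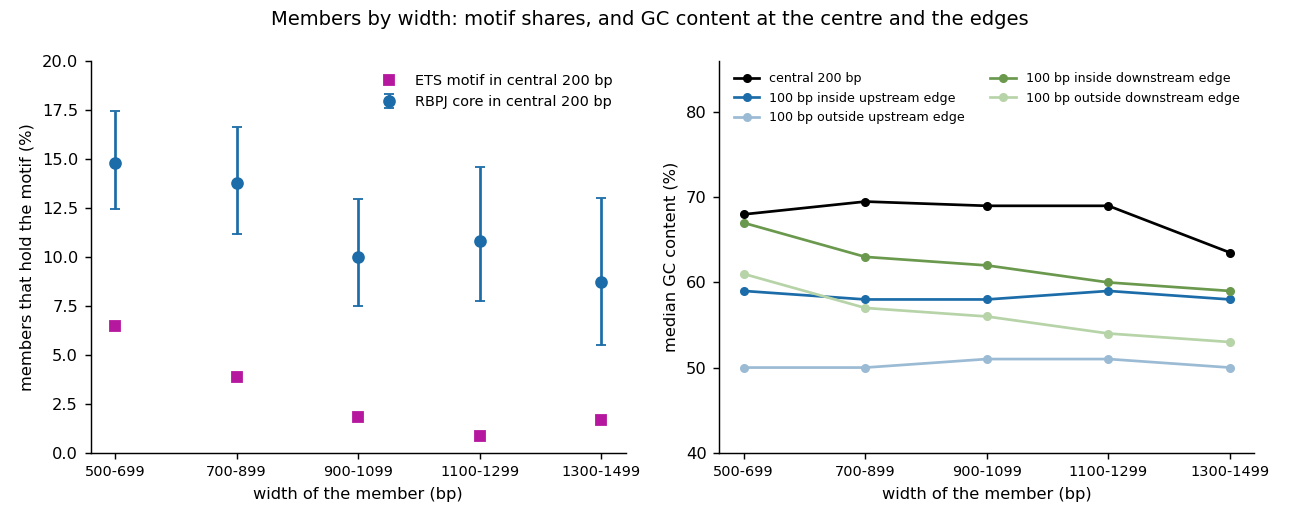
Members in 5 width classes. The left panel gives the share of members with the RBPJ core (circles, bars are 95% exact binomial intervals) or an ETS motif (squares, no interval drawn) in the central 200 bp, and the right panel the median GC content of the central 200 bp and of 100 bp on either side of each edge. The core share is 14.8% in the narrowest class and 8.71% in the widest. At the upstream edge, each class has 58 or 59% inside and 50 or 51% outside.

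The next question was how many members hold the RBPJ recognition sequence. TGGGAA lay on either strand of the central 200 bp in 317 members, or 12.5% (interval 11.2 to 13.8%). Over all 11094 peaks it was present in 25.8%, and in 200 bp centred on the 5' end of every protein-coding gene in 16.2%. Narrow promoter peaks held it in 25.6%, which is 13.1 points above members (adjusted p = 1.17e-20, two-sided Fisher's exact test with Benjamini-Hochberg adjustment over 36 motif comparisons). Broad promoter peaks held it in 14.5%, and the difference from members did not pass the threshold of 0.05 (adjusted exact p = 0.162). With a TSS limit of 2 kb or a requirement that the interval overlap a TSS, the difference from broad peaks did pass, at -3.48 points (exact p = 0.00383) and -3.22 points (exact p = 0.00784).

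The longer forms followed the same order against narrow peaks. GTGGGAA was present in 113 members (4.45%), in 10.2% of narrow peaks (adjusted exact p = 1.12e-09) and in 3.46% of broad peaks (adjusted exact p = 0.235). CGTGGGAA was present in 29 members (1.14%) and in 3.46% of narrow peaks. These differences depended on where the window was placed. In 200 bp centred on the nearest TSS, added after the data had been seen, TGGGAA was present at 14.2% of members, 17.5% of narrow peaks (adjusted exact p = 0.0976 over 36 comparisons) and 13.5% of broad peaks (adjusted exact p = 0.748), and GTGGGAA at 4.57%, 5.32% (adjusted exact p = 0.508) and 3.46% (adjusted exact p = 0.344).

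Base composition moved with these shares. Island-like members held TGGGAA in 10.3% and the other 448 members in 22.8% (p = 1.61e-11, two-sided Fisher's exact test). Among island-like peaks alone, chosen as a comparison after the data had been seen, narrow peaks held it in 19.5% (exact p = 1.65e-11 against members) and broad peaks in 10.3% (exact p = 1). Among the peaks that were not island-like, the share was 49.0% in narrow (exact p = 4.71e-12) and 17.9% in broad peaks (exact p = 0.0516). The lower share in the centres of members against those of narrow peaks was thus present in both kinds of sequence.

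Along the members, TGGGAA was scarcest at the centre, as it was in broad peaks. There were 0.615 sites per kb in the first 100 bp downstream of the centre and 1.1 per kb at 300 to 400 bp upstream. The central 200 bp held a site in 12.5% of members, and windows of 200 bp placed 600 bp away held one in 18.2%, both upstream (p = 1.61e-08) and downstream (p = 1.7e-08, two-sided exact McNemar tests). In the 1716 members under 1000 bp, these flanking windows lay wholly outside the peak. The flanking windows of all members had a median GC content of 47.5% upstream and 52.5% downstream, against 68.5% in the centre. GTGGGAA was present in 4.45% of centres, 4.57% of upstream and 4.81% of downstream windows, with exact p = 0.892 and exact p = 0.587 in the same test. Broad peaks had their lowest density in the same 100 bp, 0.683 per kb, and promoters with no peak had theirs in the first 100 bp downstream of the TSS, 0.890 per kb. Narrow peaks had their highest density at the centre, 1.79 TGGGAA per kb in the last 100 bp upstream of it.

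**Figure D2:**
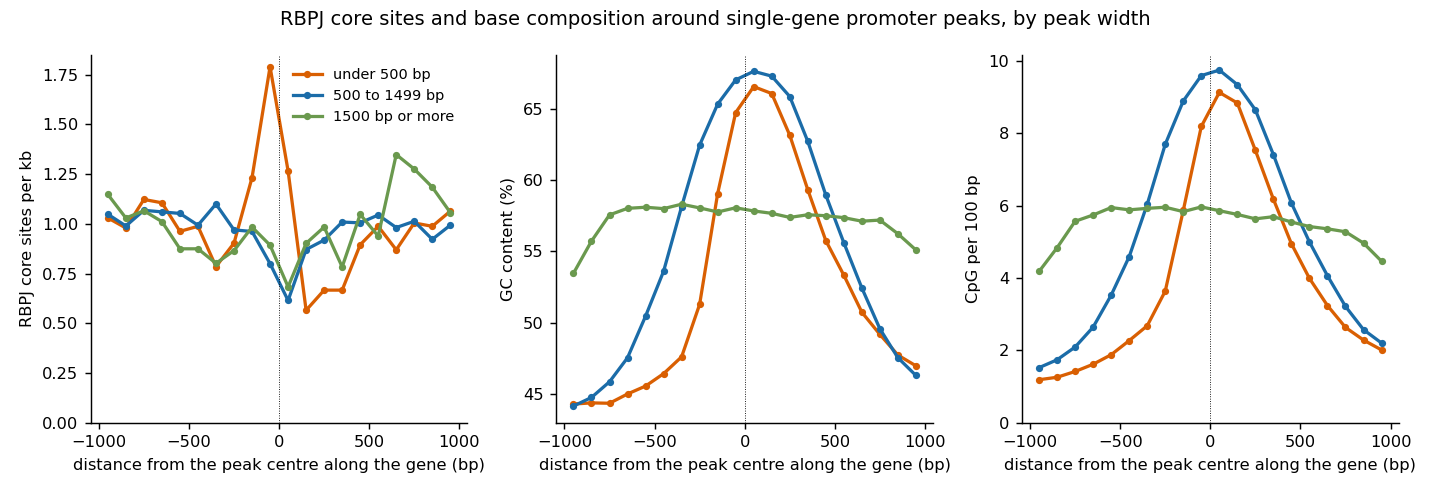
Density of the RBPJ core (left, sites per kb), mean GC content (middle) and CpG per 100 bp (right) in bins of 100 bp by distance from the peak centre, with upstream to the left, for single-gene promoter peaks in 3 width groups. In members (the middle width group) the core falls to 0.615 sites per kb where GC content peaks at 67.6%, while narrow peaks rise to 1.79 sites per kb.

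Within the width range, the narrower members more often held a core in the centre. TGGGAA was in the centre of 13.9% of the 1716 members under 1000 bp and 9.61% of the 822 members of 1000 bp or more (p = 0.00252, two-sided Fisher's exact test). The narrower ones also had an island-like centre more often, 85.8% against 75.1% (exact p = 8.3e-11). Over the whole peak rather than its centre, 1404 members (55.3%) held at least 1 TGGGAA, 823 of them exactly 1, and 1134 held none. Split by width, 48.0% of the members under 1000 bp and 70.6% of those of 1000 bp or more held a core somewhere in the peak, while the density over the whole peak was 0.980 and 0.987 sites per kb. These whole-peak values were added after the data had been seen and not tested.

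Members were next compared with promoters without RBPJ peaks, namely the 14801 protein-coding genes with no peak within 5 kb of any TSS. Windows of 200 bp were centred on the TSS nearest to the member, or on the 5' end of the gene with no peak. TGGGAA was less frequent at members, 14.2% against 16.6% (p = 0.00202, two-sided Fisher's exact test). The 2 sets differed in composition, with island-like windows at 88.8% of member TSSs and 35.6% of the others, and the direction turned when only island-like windows were kept. There, 12.9% of 2253 member windows and 10.4% of 5265 other windows held TGGGAA (exact p = 0.00207). In windows of 100 bp of any composition the difference was -0.63 points (exact p = 0.285).

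The longer the form of the site, the larger was its ratio between members and promoters with no peak. GTGGGAA was present in 4.13% of island-like member windows and 2.20% of the others (exact p = 7.56e-06). CGTGGGAA was present in 0.976% and 0.361% (exact p = 0.00171), and in windows of any composition in 25 members (0.985%) and 36 promoters with no peak (0.243%, exact p = 4.97e-07). In 1000 bp around the TSS, 5.52% of members and 2.0% of promoters with no peak held CGTGGGAA (exact p = 8.98e-21), and 5.63% against 2.45% among island-like windows (exact p = 1.08e-10). With member windows also centred on the 5' end of the gene, GTGGGAA was at 3.35% of island-like windows (adjusted exact p = 0.0192 over 18 motifs) and CGTGGGAA at 1.08% (adjusted exact p = 0.00225). The comparison of CGTGGGAA at the TSS was added after its shares in the peaks had been seen. The form with a leading C was also more frequent in members, at 6.66% of island-like windows against 4.82% (adjusted p = 0.00513), and at 7.39% with member windows centred on the 5' end of the gene (adjusted p = 0.000261, two-sided Fisher's exact tests). The base in front of the core was G at 118 of 386 cores (30.6%) in member windows and at 19.9% of the 2678 cores at promoters with no peak (exact p = 3.95e-06), and among island-like windows at 30.4% and 20.2% (exact p = 0.000925). It was C at 47.9% of cores in member windows and 40.1% at promoters with no peak, and at 49.5% and 45.5% among island-like windows. These member windows were centred on the nearest TSS. With member windows on the 5' end, 264 island-like ones held TGGGAA, 68 the form with a leading G and 150 that with a leading C. At promoters with no peak, the counts were 548, 116 and 254. Whether these genes were expressed was not analysed here, so binding and use of the promoter cannot be told apart in these comparisons.

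**Figure D3:**
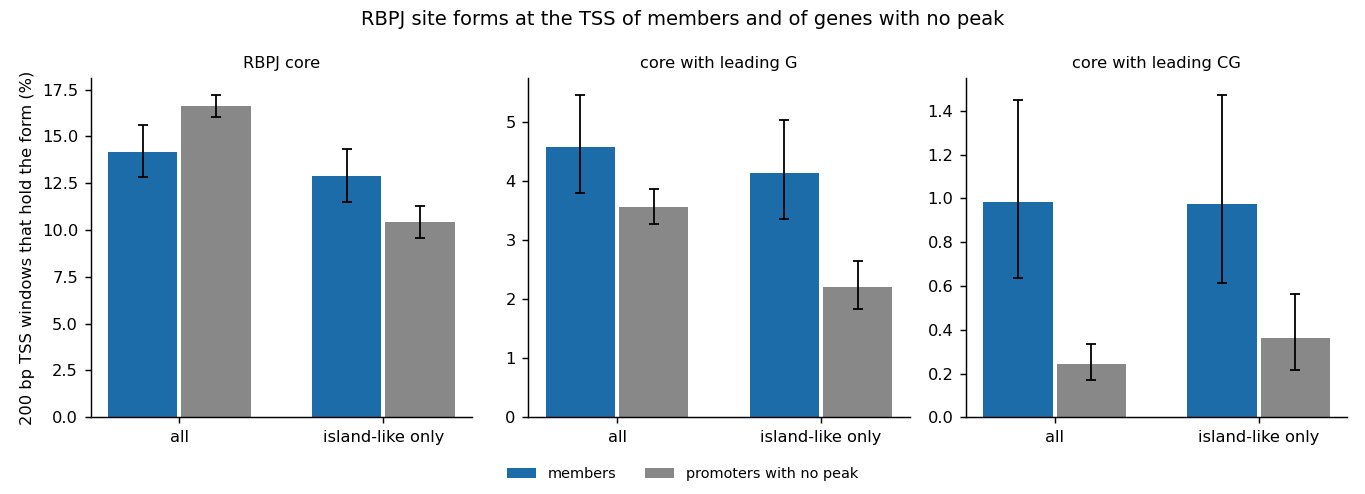
Share of 200 bp windows centred on the TSS that hold the RBPJ core (left), the core with a leading G (middle) or with a leading CG (right), in members and in promoters with no peak within 5 kb, for all windows and for island-like windows only. Bars are 95% exact binomial intervals. The core is at 14.2 and 16.6% over all windows and at 12.9 and 10.4% over island-like ones, and the form with CG is higher in members in both.

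The members with CGTGGGAA in their centre included 2 Notch target genes. Hey1 and Hey2 encode repressors that are standard targets of Notch. The Hey1 peak of 802 bp held 3 cores, 2 of them preceded by G, with its centre at -132 bp. The Hey2 peak of 806 bp (chr10:30842367-30843172) held 2 cores, both preceded by G, with its centre 32 bp downstream of the TSS. Both were island-like, with GC contents of 82.5% and 75% in the central 200 bp. Other members with this form lay at Csnk2a1, which encodes a catalytic subunit of casein kinase 2, at Sf3b1, a component of the U2 snRNP, and at Polr2g, a subunit of RNA polymerase II.

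Motifs of general promoter factors were compared in the same way. Of the 18 motifs searched (36 comparisons), none was more frequent in members than in narrow peaks, 10 were less frequent and 8 did not pass an adjusted p of 0.05 in two-sided Fisher's exact tests. Against broad peaks, 7 were more frequent, 4 less frequent and 7 did not pass. Most of these calls were lost when the 200 bp were centred on the nearest TSS in every class, which places the windows alike. There, the GC box was more frequent in members than in narrow peaks (44.4% against 36.3%, adjusted exact p = 0.000106), the YY1 motif was more frequent in members than in broad peaks (4.69% against 2.46%, adjusted exact p = 0.0224), and in each comparison the remaining 17 motifs did not pass. The values that follow are those of peak centres. The GC box GGGGCGG, bound by SP and KLF factors, was in the centre of 32.3% of members, 33.4% of narrow peaks (adjusted exact p = 0.562) and 18% of broad peaks (adjusted exact p = 3.51e-18). The ETS motif CCGGAAGT was in 3.70% of members, 6.58% of narrow (adjusted exact p = 0.000494) and 0.638% of broad peaks (adjusted exact p = 8.76e-08). The YY1 motif AAGATGGCG was in 2.72% of members, 2.95% of narrow (adjusted exact p = 0.69) and 0.729% of broad peaks (adjusted exact p = 0.00018). The AP-1 motif TGANTCA, which marks many enhancers, was in 2.32% of members and in 17.8% of peaks over 1 kb from a TSS. Over the 5' ends of all protein-coding genes, the GC box was in 25.1% and the YY1 motif in 1.79% of 200 bp windows, below their shares in members, and the ETS motif was in 4.34%, the NRF1 motif GCATGCGC in 2.70% and the NF-Y motif AGCCAAT in 6.56%, above the 3.70%, 1.93% and 4.14% of members. In 200 bp centred on the nearest TSS, members held the ETS, NRF1 and NF-Y motifs in 6.86%, 3.82% and 7.49%, above the shares of all 5' ends. Differences from all 5' ends were not tested. Matches were counted on both strands and are letters in a window, not sites of binding.

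All motifs were then compared at the TSS, again between members and promoters with no peak. Among island-like windows, 6 of the 18 motifs were more frequent in members, 1 was less frequent and 11 did not pass an adjusted p of 0.05. The 6 were TGGGAA and its forms with a leading G, a leading C and a leading CG, which overlap, with the GC box (47.3% against 43.2%, adjusted exact p = 0.00487) and the YY1 motif (5.19% against 2.94%, adjusted exact p = 6.8e-05). The ETS motif was at 7.37% and 7.50%. TATAAA was the less frequent one, at 1.69% and 3.38% (adjusted exact p = 0.000184). Over promoters of any composition and placed where a TATA box acts, from -40 to -15 bp, TATAAA was found at 16 members (0.630%) and at 3.17% of promoters with no peak (exact p = 9.28e-17). It was at 0.675% of narrow peaks (exact p = 0.83 against members) and 1.09% of broad peaks (exact p = 0.151). This set of comparisons was also added after the data had been seen.

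**Figure D4:**
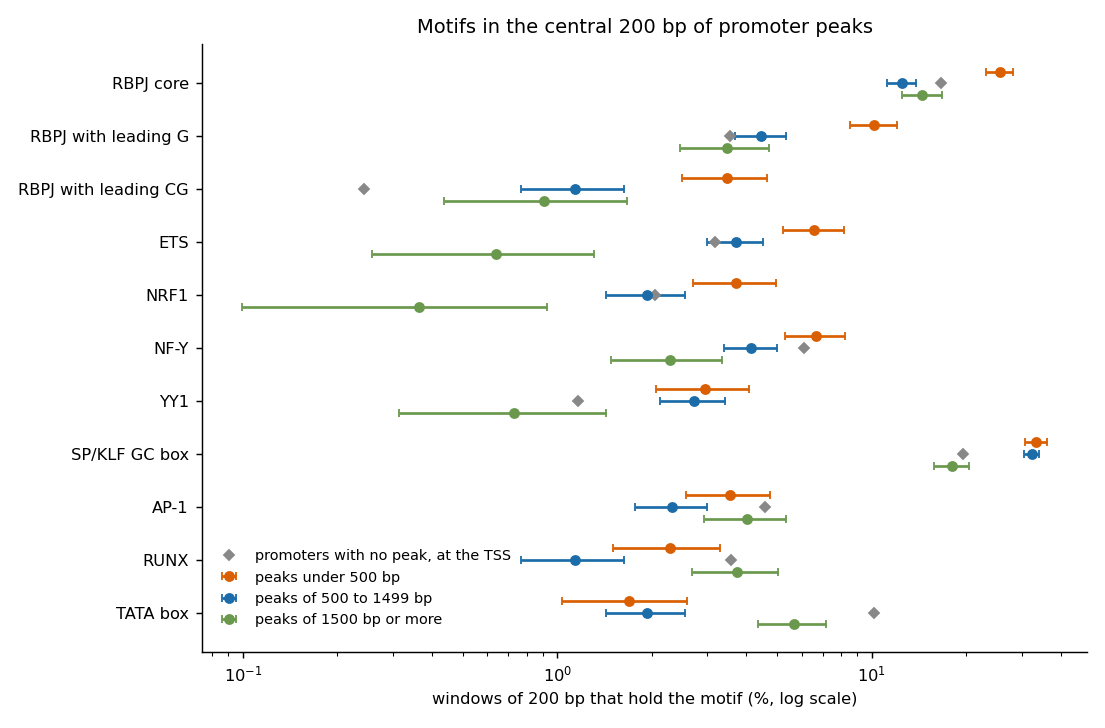
Share of peaks with each motif in the central 200 bp (points, 95% exact binomial intervals, logarithmic axis) for narrow, medium and broad single-gene promoter peaks, and the share of promoters with no peak that hold it in 200 bp around the TSS (grey diamonds). Members lie below narrow peaks for the RBPJ forms and the ETS motif, and above broad peaks for the GC box and the YY1, ETS and NRF1 motifs, and with windows on the TSS only the difference of the YY1 motif from broad peaks passed among these.

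A core can also belong to a longer element. ZNF143 binds a composite in which TGGGAA continues into NTGTAGT or is preceded by TGC. Of the 341 cores in the centres of members, 20 (5.87%) had this context, against 8.73% in narrow peaks (exact p = 0.19), and 1.79% in broad peaks (exact p = 0.0409). In windows at the TSS, it was present at 8.29% of the cores of members and 7.21% of those at promoters with no peak (exact p = 0.465). Among island-like windows there, it was at 7.44% of the cores of members and 13.1% of those at promoters with no peak (exact p = 0.0103). The continuing form is shown at Nutf2, a nuclear import factor, chr8:105860513-105860573 (plus strand), and at Pa2g4, chr10:128566042-128566102 (minus strand), with the composite in capitals.
Nutf2: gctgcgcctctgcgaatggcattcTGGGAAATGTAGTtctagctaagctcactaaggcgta
Pa2g4: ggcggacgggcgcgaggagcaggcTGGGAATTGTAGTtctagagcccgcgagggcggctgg

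Pa2g4 was also among the members with most TGGGAA per kb. The highest densities were at 1700008O03Rik (6 sites, 9.57 per kb), Pa2g4 (5 sites, 8.29 per kb), C1qtnf5 (6.88 per kb), Zfp971 (6.87 per kb) and Crbn (6.72 per kb), followed by Zfp558, Kmt2b, Fam81a, Tbrg4 and Cdca4 with 5.70 to 6.52 per kb. These 10 were ranked on the density itself. All but Tbrg4 had a core in the central 200 bp.

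Paired RBPJ sites, in which 2 cores face each other at a set spacing and can be bound by a Notch dimer, are known from some Notch targets. Head-to-head pairs of TGGGAA or TGAGAA with 10 to 20 bp between them occurred 25 times in the members, at 25 genes. That is 11.2 pairs per Mb of peak, beside 19.2 in narrow and 11.9 in broad peaks. No spacing stood out, with at most 4 pairs at any gap. The pairs at Prickle3, chrX:7657593-7657639 (plus strand), with 15 bp between the cores, and at Herc1, chr9:66351204-66351252 (plus strand), with 17 bp, are shown with both cores in capitals. Their middles lay at -381 and 475 bp from the peak centre on the chromosome. Pairs at Rab3c (15 bp), Ociad1 (16 bp), Asah1 and Cgn (17 bp each) had similar spacing, and the others were at Frmd4a, Ptges2, Tap2, Akt1, Nsmf, Klhl36, Rab8b, Gm16253, Il17rd, Lhfp, Stk11, Afg1l, Ankle2, Ephb2, Aggf1, Erbb3, Lrrc1, C2cd2 and Zkscan6.
Prickle3: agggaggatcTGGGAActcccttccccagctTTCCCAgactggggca
Herc1: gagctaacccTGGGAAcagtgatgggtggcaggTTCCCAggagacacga

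The genes with a member were read against the 11.5% of all protein-coding genes that had one, as counts and with no test. Of 9 Notch receptors and ligands, Notch2 and Notch3 had a member. Notch3, the receptor of mural cells, carried a peak of 657 bp with 3 cores, none in the central 200 bp, and Notch2 a peak of 980 bp with 1 core, also outside the centre. Among genes for Notch processing, members lay at Adam10 and Adam17, which encode proteases that cut the receptor outside the membrane, and at Aph1b and Psen2. Of 27 partners of RBPJ, the members were at Ep300, Hdac2, Kmt2d, Maml1 and Tbl1xr1, which encode co-activators and co-repressors, and none of these 5 held TGGGAA in its centre, beside 12.5% of all members. Of 21 Notch target genes the members were at Gata3, Hey1 and Hey2.

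Genes of TGF-beta signalling and adhesion were also present. Of 42 genes of the TGF-beta and BMP pathways, 8 (19%) had a member, namely the receptors Acvr2a and Tgfbr3, the ligand Tgfb2, the inhibitor Skil and the signal transducers Smad1, Smad2, Smad4 and Smad5. None of the 8 held TGGGAA in the central 200 bp, which 12.5% of all members did. Of 26 integrin subunits, 7 (26.9%) had one, at Itga3, Itga8, Itgav, Itgb1, Itgb3, Itgb4 and Itgb5. Itgb4, whose product links epithelial cells to laminin, had a peak of 576 bp (chr11:115975283-115975858) with 3 cores, and it was the only listed integrin with a core in the centre. Its central window was not island-like, with a GC content of 59%. Of 36 matrix and fibrosis genes, Ccn2, Mmp14 and Nid2 had a member.

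Markers of pericytes and of other cell types were counted as well. Among 21 pericyte markers Notch3 had a member, and among 17 contractile and filament genes there was none, while 3 of these 17 had a broad peak. The series held 1098 broad peaks for 21853 protein-coding genes, and the share of genes with a broad peak was not counted. No member lay at the 12 endothelial, 6 astrocyte, 8 neuron, 7 microglia, 7 oligodendrocyte lineage or 7 fibroblast markers. These lists are short, and 11.5% of all protein-coding genes had a member. Chromosomes 4, 7, X and Y, where few peaks were called, held 4 of the 12 endothelial and 3 of the 21 pericyte markers. A peak list shows presence or absence of a peak and gives no level of any marker.

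Gene families were matched by gene symbol, and their shares ran from 0 to 31.1%. Cyclins, cyclin-dependent kinases and related cell cycle genes had a member at 19 of 61 (31.1%), among them Ccna2, Ccne1, Cdk1 and Cdk4. Histone lysine methyltransferases and demethylases had 17 of 57 (29.8%), such as Ezh2, which places the repressive H3K27 methyl mark, and Dot1l, which methylates H3K79. Rab GTPases, which direct vesicle traffic, had 17 of 59 (28.8%), among them Rab1a, Rab5b and Rab11a. Genes with symbols of translation initiation and elongation factors had 18 of 68 (26.5%), RNA helicases and splicing factors 31 of 134 (23.1%), ubiquitin-conjugating enzymes and ubiquitin-specific proteases 20 of 87 (23.0%), and AP-1 and ATF factors 6 of 24 (25%).

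Other families of widely used genes had shares on both sides of the 11.5%. Subunits of RNA polymerases, Mediator and general transcription factors had a member at 24 of 116 (20.7%) and aminoacyl-tRNA synthetases at 7 of 38 (18.4%). Of 78 mitochondrial ribosomal proteins, 5 (6.41%) had a member. A promoter peak of any kind lay at 41 of these 78 genes, and at 24 it lay within 1 kb of more than 1 gene, which the choice of members leaves out. Over all protein-coding genes, 6.16% had such a shared peak, and the share with a promoter peak of any kind was not counted. Of 94 genes with symbols of the respiratory chain and ATP synthase, 8 (8.51%) had a member. Cytosolic ribosomal proteins had a member at 14 of 82 (17.1%) and proteasome subunits at 4 of 39 (10.3%).

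Several families had no member or 1. No member lay at 39 Hox genes, 44 collagen chains or 1091 olfactory receptors. The exceptions were Vmn1r40, the 1 of 326 vomeronasal receptors with a member, and Krt19, the 1 of 52 keratin genes. The Vmn1r40 peak of 1161 bp had a GC content of 41.5% and a CpG ratio of 0.232 in its centre. The Krt19 peak of 502 bp had a GC content of 56.5% and held a core in the centre.

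**Figure D5:**
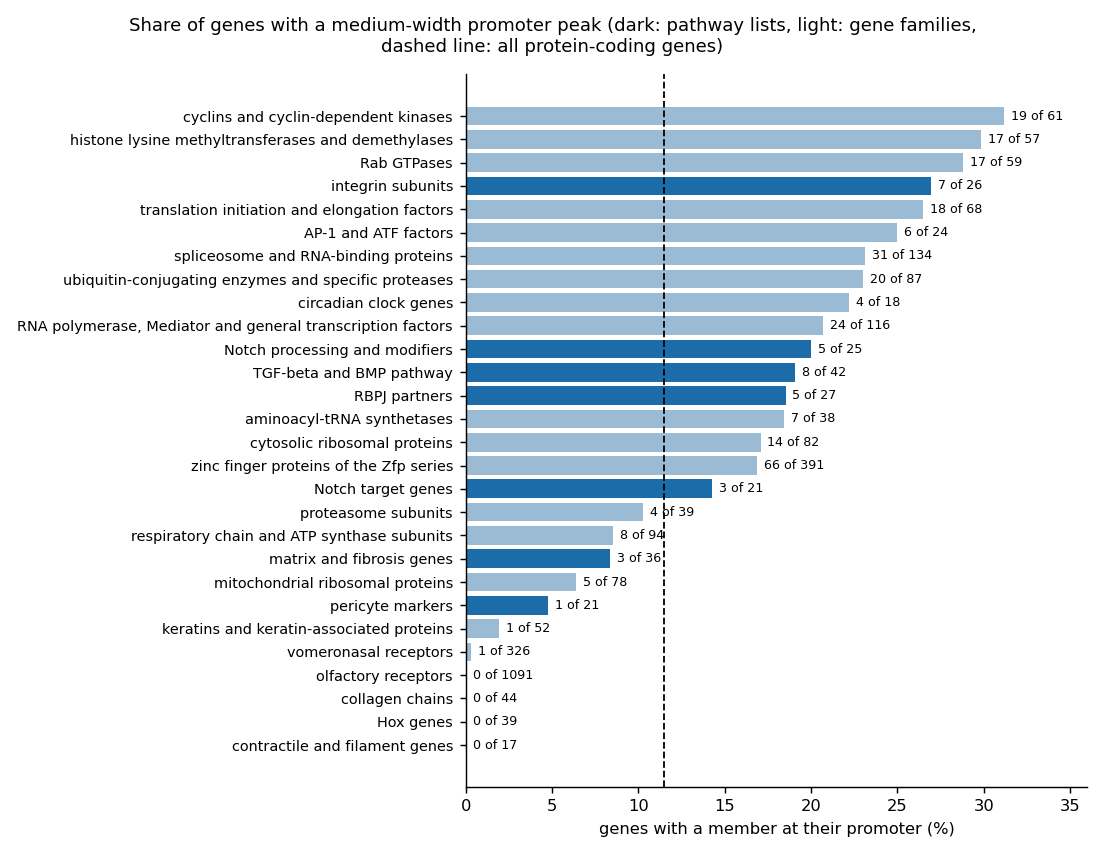
Share of genes with a member in pathway lists (dark) and gene families (light) of at least 15 genes, with the count beside each bar and the 11.5% of all protein-coding genes as a dashed line. Cell cycle, histone methylation and Rab genes are at 28.8 to 31.1%, and contractile, Hox, collagen and olfactory receptor genes are at 0.

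Having a member went with promoter composition. Of the 10480 genes with an island-like 5' end, 2014 (19.2%, interval 18.5 to 20%) had a member, and of the other 11373 genes, 506 (4.45%, interval 4.08 to 4.84%). Its part in the differences between lists was not tested.

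Peaks of every kind were scarce on 4 chromosomes, and members with them. The list held 146 peaks on chromosome 7, 158 on chromosome 4, 144 on chromosome X and 3 on Y, and 350 to 1016 on each of the others. Members made up 21.9%, 17.1% and 15.3% of the peaks on chromosomes 7, 4 and X, beside 22.9% over the whole list. Members were at 1.59 of 100 protein-coding genes on chromosome 7, 2.04 on chromosome 4, 2.32 on chromosome X and none on Y, and at 11.1 to 17.8 on the other 17 autosomes (median 13.6). Outside these 4 chromosomes 14% of genes had a member, and zinc finger genes of the Zfp series, with 66 of 391 (16.9%) on all chromosomes, had 24.5%. The source of the low counts on these chromosomes was not tested.

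A TSS of a gene that is not protein-coding lay within 1 kb of 458 member centres (18%, interval 16.6 to 19.6%). The share was 13.6% in narrow peaks (p = 0.000659, two-sided Fisher's exact test) and 19.3% in broad peaks (p = 0.376). Within 500 bp it was 14.6% in members and 9.11% in broad peaks, so that the direction against broad peaks turned (exact p = 3.51e-06). In 425 of the 458 members such a TSS was on the strand opposite to the coding gene. The nearest other peak was a median of 41.8 kb from a member, 37.3 kb from a narrow and 34.4 kb from a broad peak, and 11.9% of members, 17.1% of narrow and 14.5% of broad peaks had one within 10 kb.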

How the data were processed

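Groups and replicate numbers came from the sample titles. Per the study's methods, the authors mapped reads with bowtie (GRCm38), dropped duplicates, called peaks with MACS2 and PeakRanger, joined neighbouring calls, retained regions supported by several calls across replicates and filtered out blacklisted ones. The deposited columns hold coordinates in bp and no score, count or signal. Joined calls are wider, and a bound site may lie away from the centre of its interval. Starts were read as counted from 1.

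Protein-coding transcripts of GENCODE M21 gave 54327 distinct TSSs, and sequence was read from GRCm38.p6, in which 0 peaks ran past a chromosome end. Windows were centred on the peak centre or the TSS, and motifs were counted once per window on both strands. A window 600 bp from the centre served as flank. Comparisons used two-sided Fisher's exact, exact McNemar and exact binomial tests, with exact (Clopper-Pearson) 95% intervals. Motif search and classes were tested on simulated data.

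Members, gene lists, families and motifs were chosen with earlier results of these data known. Named genes were those of the Notch, TGF-beta, matrix, integrin and mural cell lists, members with paired sites, the 10 with most TGGGAA per kb and those next to each limit, and other genes were picked with their values known. A listed gene and a sequence are not reported here. Alternatives included distance, TSS set, width, window, soft-masked sequence and chromosomes. A threshold on peak strength could not be set, as the list has no score. Python 3.11.15, pandas 2.3.3, scipy 1.17.1 and pysam 0.24.0 were used.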

Additional observations from a re-analysis of the deposited data

How the results depend on the processing

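Of 66 values under alternative settings other than leaving out a replicate, 54 kept both direction and call, or stayed within the range set for counts and shares. The share of members with TGGGAA moved with the window, to 6.30% in the central 100 bp and 26.1% in the central 400 bp, and to 9.61% among members of 1000 bp or more. The difference from broad peaks passed the threshold at -3.48 points within 2 kb of a TSS and at -3.22 points for intervals overlapping a TSS. Against promoters with no peak, the difference in TGGGAA at the TSS was -0.634 points in 100 bp, no longer past the threshold. It turned to 2.46 points in island-like windows, where both sets met the same limits of GC and CpG content. Noncoding TSSs near members against broad peaks turned to 5.51 points within 500 bp, for which the cause was not tested. The number of members was 2012 to 2552 under other distances, TSS sets and chromosomes and with both width limits drawn in by 100 bp, and 822 were of 1000 bp or more. With windows centred on the TSS rather than the peak, the difference in TGGGAA from broad peaks turned to 0.705 points (exact p = 0.603), that in GTGGGAA from narrow peaks was -0.746 points, no longer past the threshold, and 1 motif passed against each of narrow and broad peaks, in place of 10 and 11. The difference in TGGGAA from narrow peaks was then -3.28 points, with exact p = 0.0108 before adjustment and 0.0976 after it. These windows and the comparison with island-like peaks alone were added after the data had been seen. Leaving out either RBPJ replicate left 2538 members, a TGGGAA share of 12.5% and differences of -13.1 points from narrow and -1.99 points from broad peaks, because both files hold the same list. No paired analysis was possible because both RBPJ replicates share 1 list, and that list holds no values per replicate. Depth is unknown, and a peak just under the calling threshold cannot be told apart from no binding.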
